A study of Rattus norvegicus with 15 samples.

Results

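The 150 brightest probes on arrays of rat olfactory epithelium were taken from the 41012 probes that are not controls. They were chosen by their signal: spots of a probe were averaged, set relative to the array median, and the median over 15 arrays was ranked. The 1462 probes whose gene name begins as those of olfactory receptors, cytochromes P450, Ugt and Gst enzymes, odorant binding proteins, lipocalins, respiratory chain and ATP synthase subunits (Nduf, Cox and Atp5 names), keratins, MHC genes, collagens, hemoglobins and S100 proteins, or equals Omp, were left out first, and 11 of them were brighter than the last probe taken. The signal that chose the probes is given as a description, without a test. The name filter worked on gene names only, so some related transcripts under other names stayed in. Among them were M26926 (the accession of the olfactory marker protein gene), LOC287167 (an alpha globin), M27315 (a mitochondrial record) and Uqcrh (a respiratory chain subunit).

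The olfactory epithelia came from Brown Norway rats aged 6 weeks, 4 males (rats 1, 2, 5 and 6) and 4 females (rats 3, 4, 7 and 8), with no treatment named in the labels. The paper states that 2 suppliers each provided 2 of the males and 2 of the females. The labels do not give the supplier, so it cannot be told apart from differences between rats. The nostrils of a rat, called A and B, were measured on separate arrays in 7 rats, and male 1 had nostril A alone. The arrays lay on 4 slides: slide 1 held rats 1 and 2 and nostril A of female 3, slide 2 nostril B of female 3 and female 4, slide 3 the males 5 and 6, and slide 4 the females 7 and 8. Dissected epithelium holds several cell types, and in such tissue fewer cells of a type cannot be told apart from less RNA per cell.

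The olfactory epithelium is a sheet of sensory neurons, supporting (sustentacular) cells and basal stem cells above glands that secrete mucus. Mature neurons carry the odor transduction machinery in their cilia and hold the olfactory marker protein, and they are replaced throughout life. As in most tissues, a large share of the messenger RNA encodes the translation apparatus and the cytoskeleton. Defining markers were detected for the labelled tissue: 7 of 7 markers of mature neurons on the array, 5 of 5 of immature neurons and 3 of 3 of sustentacular cells. Of 5 markers of glands and secretory cells on the array, 4 were detected.

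All 150 probes were well above background on all 15 arrays. Their levels, as log2 of the signal over the array median, ran from 13.22 (9565 times the median) for LOC257642 down to 10.13 (1124 times) for Crym. Just inside the limit lay XM_237243 (10.15), Mapk8ip (10.15), Pcdh21 (10.15), Rpl10 (10.14) and Crym (10.13), and just outside it Slc16a11_predicted (10.12), Mtch1 (10.12), RGD1562287_predicted (10.11), AB033713 (10.10) and Ppp1r1a (10.10). The SD of these 10 probes over rats, 0.07 to 0.16, was larger than the steps between them. Every one of the 150 was read on all arrays at the low setting of the scanner and scaled up, and 1 probe, the brightest of LOC257642, had a saturated spot on some array. A rank is that of a probe and not of a transcript, since probes of 60 bases differ in how well they hybridize.

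How far the probe decides is seen in the other probes of the same gene names. For 33 of the names, 53 further probes did not reach the limit, and they lay a median of 2.87 log2 units (range 0.18 to 11.86) below the brightest probe of their name. Gnb1 (a beta subunit of G proteins) had a probe at 10.89 and another at -0.97, and Tpt1 (a translation-associated protein) had probes at 11.84, 11.10 and 0.32. The gene named Omp by its symbol, which the rule left out, had its probe at 7.54, whereas the probe named by the accession of the olfactory marker protein gene stood at 12.15. For the 15 names with more than 1 probe among the brightest, those probes differed by 0.01 to 1.02 log2 units, a gap that the limit itself holds down.

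Some bright probes also share part of their sequence, and whether they bind the same transcripts was not tested. The probes below are 60-base sequences from the array files, shown because they share bases, and capitals mark the longest shared stretch. AW914778 and AW920832, both expressed sequence tags, share 40 bases.

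AW914778: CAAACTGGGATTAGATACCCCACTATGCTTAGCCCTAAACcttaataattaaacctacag
AW920832: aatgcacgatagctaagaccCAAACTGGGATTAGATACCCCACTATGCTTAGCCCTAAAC

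Levels of these 2 probes followed each other from rat to rat, with the lowest value in female 8 (10.10 and 10.02) and the highest in male 2 (10.66 and 10.56). The second pair runs in opposite directions: 35 bases of a LOC257642 probe are the reverse complement of 35 bases of the Rab15 probe, so each is printed as spotted on the array.

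LOC257642: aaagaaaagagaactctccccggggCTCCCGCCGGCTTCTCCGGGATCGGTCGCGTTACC
Rab15: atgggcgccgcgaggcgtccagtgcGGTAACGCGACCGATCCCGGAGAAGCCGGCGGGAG

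Rab15 encodes a small GTPase, but its bright probe carries this stretch, and the gene's other probe stood at 1.18. The bright Rab15 probe had the highest GC content of the 150, at 73.3%, against a median of 45.0% among them and 43.3% over all probes. The tubulin genes Tubb2b and Tubb5 share 20 bases at their probes.

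Tubb2b: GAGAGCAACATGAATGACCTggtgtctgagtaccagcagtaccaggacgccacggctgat
Tubb5: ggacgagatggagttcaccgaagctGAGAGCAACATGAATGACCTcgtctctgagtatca

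Tubb2b stood at 11.37 and Tubb5 at 10.33, and a split of the signal between such relatives cannot be resolved from these arrays. Shared bases were also found between a probe named AW141288 and both probes of LOC686736, a histone H3 relative (24 and 20 bases).

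The 3 brightest probes carry an annotation that mentions ribosomal RNA or share an accession with one that does, and none of them was matched to a genome here. LOC257642, described as a protein that binds the ribosomal RNA promoter, held ranks 1 (13.22) and 3 (12.50), and AY325217, whose accession is shared with the second of these, held rank 2 (12.75). BM986231 (10.16), described as similar to ribosomal RNA, and BI395685 (10.74) shared accessions with each other only. Female 4 had the lowest level in all of these 5 probes, as in 69 of the 150. The array sequence of the brightest probe and of AY325217, shown in lower case throughout because no part is singled out, are:

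LOC257642 (rank 1): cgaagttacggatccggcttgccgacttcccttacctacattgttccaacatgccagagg
AY325217: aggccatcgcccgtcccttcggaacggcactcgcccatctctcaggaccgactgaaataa

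The mitochondrial record M27315 gave 3 probes (11.05, 10.87 and 10.74), and BF290512, which shares an accession with one of them, gave 11.75. The probes of these mitochondrial transcripts varied little among rats, by 1.20 to 1.33-fold from the lowest to the highest rat.

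**Figure D1:**
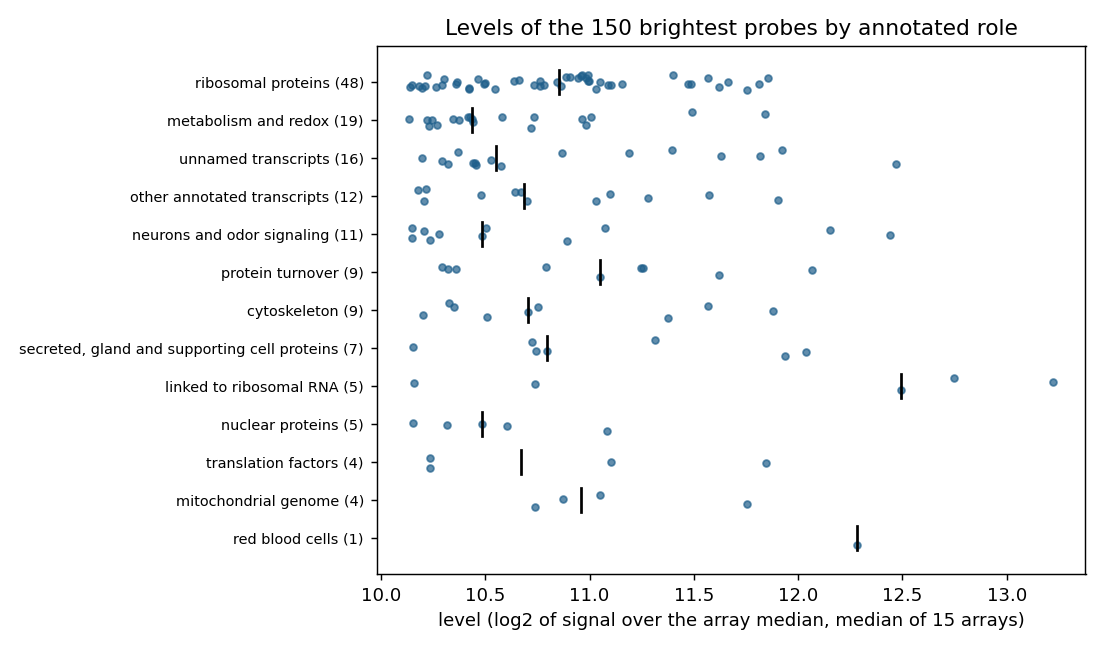
Level of each of the 150 probes (log2 of signal over the array median, median of 15 arrays) by the role of its annotation, with the number of probes in brackets and a black line at the median of each role. The probes tied to ribosomal RNA reach the highest level, 13.22, and 48 probes are of ribosomal proteins.

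Ribosomal proteins, the building blocks of the ribosome, were the largest group, with 48 of the 150 probes by name or description. By gene name alone 33 of the 123 probes of such genes on the array were among the brightest, and 46 of the 488 probes with these words in the description. The highest were Rplp1 (11.85), Rpl14 (11.81), Rps23 (11.75) and Rpl41 (11.66). Over the 8 rats the SD of the 48 probes was 0.05 to 0.16 log2 units, with a median of 0.09. Rps6, a subunit phosphorylated by growth signals, ran from 11.43 in male 1 to 11.64 in female 7, a 1.16-fold range.

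The factors that work with the ribosome gave 4 probes out of 97: both bright probes of Tpt1, Eef1a1 (10.24) and Eef1g (10.23), elongation factors. Ubiquitin, the tag for protein breakdown, was read by 2 probes of Ubb (12.06 and 11.05), next to Skp1a (11.62, a ubiquitin ligase subunit), and the list of protein folding and turnover genes gave 7 of 245. Cytoskeletal genes gave 6 of 86 probes by name, with the tubulins Tubb2c (11.88), Tubb2b and Tuba6 (10.71), the actin-binding peptide Tmsb4x (11.57) and Actb (10.20). Among nuclear proteins were Ptma (11.08), an acidic chromatin-associated protein, and Hnrpab (10.15).

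Neurons and odor signaling were represented by 11 probes. Atf5, a transcription factor of maturing olfactory neurons, had the highest level of them (12.44), and ran from 12.30 in female 4 to 12.59 in male 6. The olfactory marker protein probe M26926 ran from 11.99 in female 4 to 12.28 in male 6. LOC682159 (11.08), described as similar to a guanine nucleotide binding protein, Gnb1 (10.89) and Calm2 (10.21, calmodulin, the calcium sensor that adapts odor responses) belong to signal transduction. The odor transduction list placed 2 of its 29 probes among the brightest (Gnb1 and Calm2), and the neuronal list 1 of 75 (Nsg1, 10.50, a protein of neuronal endosomes). Pcdh21 (10.15) is a cadherin that the olfactory bulb and photoreceptors also use. The SD over rats of the 11 probes was 0.07 to 0.13.

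Secreted, gland and supporting cell proteins gave 7 probes. Plunc (12.04), a secreted antimicrobial protein of the upper airway, ran from 11.85 to 12.25 over rats, and Scgb1c1_predicted (11.94), a small secreted secretoglobin, from 11.77 to 12.16. Sec14l3 (11.31) is a lipid-binding protein of sustentacular cells and Aqp3 (10.79) a water channel of basal epithelial cells. These 2 stayed within 1.22-fold, but Wfdc2 (10.75, a secreted protease inhibitor), Apoe (10.72, a lipid carrier) and Sparc (10.15, a matrix protein of bone and connective tissue) ranged by 1.68, 1.57 and 3.07-fold. The list of secreted mucosal and defense proteins placed 3 of 102 probes here, and that of lipid carriers and plasma-type proteins 2 of 85.

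Metabolic and redox genes gave 19 probes. Tkt, a pentose phosphate enzyme that supplies NADPH, stood at 11.84, Mettl7a at 11.49, the fatty acid transporter Slc27a2 at 11.01 and the superoxide dismutase Sod1 at 10.99 and 10.72. Iron storage by ferritin light chain was read by 2 probes of Ftl1 (10.44 and 10.42), and glutathione peroxidase Gpx6, known from olfactory epithelium, by 1 (10.22). The energy metabolism list placed 4 of 63 probes among the brightest (Atp1b1, Ckb, Ldhb and Uqcrh), metal handling and redox 5 of 70 and odorant and xenobiotic metabolism 1 of 116 (Aldh2, 10.35), the last 2 after the name filter had removed the P450 and transferase families. Histones and chromatin proteins gave 2 of 104 probes. Immune and antigen presentation genes gave 0 of 144 and red cell genes 0 of 16, the alpha globin being listed under LOC287167. The name filter had also removed MHC, hemoglobin, odorant binding protein, lipocalin, Nduf, Cox and Atp5 names. Probes with such names could not be counted among the brightest in any list. No gene name on the array matched the list of mitochondrially encoded genes, which appear under accessions.

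The levels of these probes differed little between animals. The SD over the 8 rats had a median of 0.11 log2 units, against 0.16 over the 27625 probes tested, and 133 of the 150 lay below that second value. Within slides these medians lay closer together, at 0.07 and 0.09. From the lowest to the highest rat, 142 of the 150 ranged by under 1.5-fold, as did 64.1% of all probes tested. Bright probes as a class had this spread: the next 850 probes by level had a median SD of 0.11, and the 11 bright probes left out by name 0.09. The steadiest were Tpt1 (0.04, its probe at 11.10), Tubb2c and LOC683917 (a relative of a GABA(A) receptor-associated protein), both 0.05, Tubb2b (0.05) and XM_230930 (0.05, similar to ribosomal protein L7a). Between the nostrils of a rat the SD had a median of 0.07, against 0.12 over all probes tested.

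**Figure D2:**
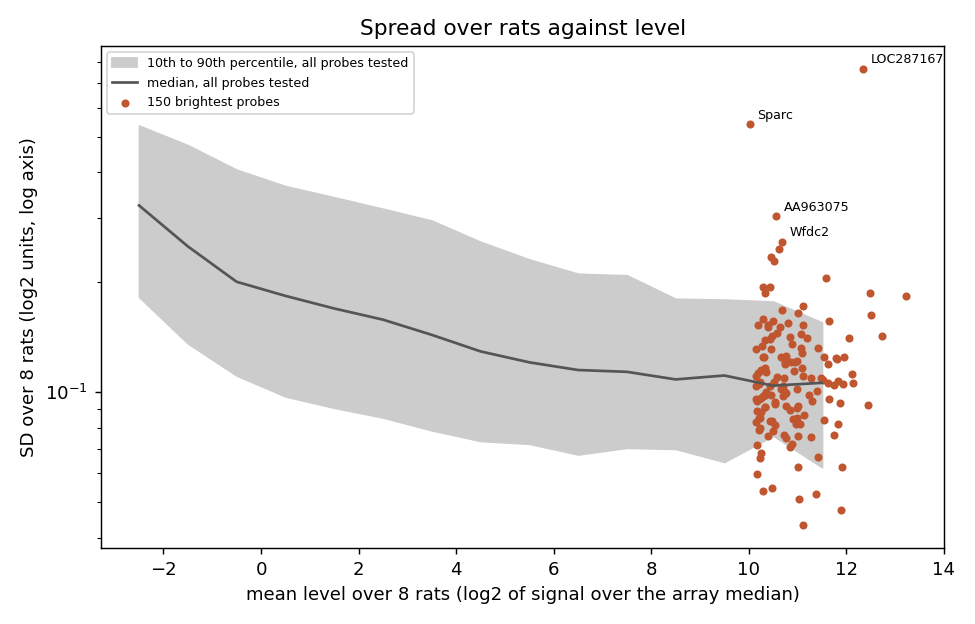
SD over the 8 rats (log2 units, log axis) against the mean level, with the 10th to 90th percentile (grey) and median (line) of all probes tested in steps of 1 log2 unit, and the 150 brightest probes as points. The highest points are LOC287167 (0.77) and Sparc (0.54), other probes such as AA963075 (0.30) also lie above the grey band, and the band ends below the level of LOC287167.

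Part of the spread was shared by the whole set. The mean level of the 150 probes was lowest in female 4 (10.77) and highest in male 5 (10.98), while the median signal of the arrays, which scales the level, was highest in female 4 (82.6 intensity units) and lowest in male 5 (59.4). After quantile normalization, which gives every array the same distribution, the mean ran from 10.88 to 10.89. The median SD of the 150 probes was then 0.07, against 0.16 over all probes tested. Differences of single probes between rats moved both ways under this scaling, as given below with the test among rats. The cause of these moves was not tested.

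The largest spread was that of LOC287167, an alpha globin of red blood cells (probe at chr10:15560180-15560237, build rn3). Its level was 12.86 in male 1, 12.01 in male 2, 13.08 in male 5 and 13.25 in male 6. Among females it was 11.48 in rat 3, 12.76 in rat 4, 11.15 in rat 7 and 12.19 in rat 8, so that the sexes overlapped. The range was 4.28-fold. The nostrils of female 7 were at 11.67 and 10.63, the widest pair, and those of male 5 at 13.11 and 13.05. All 3 red cell markers on the array, of 5 listed, were detected (Hbb, Alas2 and Slc4a1), none of them at 0, and their mean level was 5.34 to 7.91 in males and 4.03 to 7.07 in females, lowest in female 7 and highest in male 6, as for LOC287167. The part of blood in this spread was not tested.

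Sparc (chr10:40825096-40825155, rn3) stood at 9.57, 10.40, 10.88 and 10.21 in males 1, 2, 5 and 6, and at 9.49, 9.26, 10.12 and 10.23 in females 3, 4, 7 and 8. The lowest and highest rats were female 4 and male 5, and the sexes overlapped. Of 5 bone markers on the array 4 were detected (Bglap2, Ibsp, Dmp1 and Col1a1), with a mean level of 7.44 to 8.94 in males and 7.46 to 8.42 in females, and male 5 was also highest for them. The part of bone in the spread of Sparc was not tested.

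To ask which probes differ between rats of 1 sex by more than between the nostrils of a rat, limma's F-statistic was computed over 27574 probes, with Benjamini-Hochberg adjustment. At 1%, 2.79% of all probes tested were called, and 3 of the 150 were called: AW143134, AA963075 and Rps20. At 5% the share was 16.1% of all probes and 39 of the 150. The median F of the 150 was 3.76, against 2.37 over all probes tested. This order turned after quantile normalization, with a median F of 2.35 against 2.50 over all probes. At 5% that setting called 37 of the 150, against 20.7% of all probes.

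AW143134 (chr8:102368016-102368075, rn3), an expressed sequence tag from rat brain, was low in female 7 alone. Its level was 9.92 and 9.86 in the nostrils of female 7, and 10.38 to 10.69 on the 13 other arrays. By rat, female 7 stood at 9.89 and the others at 10.43 to 10.64 (F = 29.5, limma adjusted p = 0.0015). Without female 7 the F fell to 1.75 (adjusted p = 0.36), so the call rested on this rat. Comparing only rats that shared a slide, the F was 23.0 and the adjusted p was 0.053.

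AA963075 (chr8:71297797-71297856, rn3), another expressed sequence tag, was higher in rats 1 to 4 than in rats 5 to 8. It stood at 11.02 and 10.67 in males 1 and 2 and 10.82 and 10.80 in females 3 and 4, then at 10.37 and 10.35 in males 5 and 6 and 10.18 and 10.31 in females 7 and 8. The groups of rats did not overlap, and they lay on slides 1 and 2 and on slides 3 and 4 (F = 16.0, limma adjusted p = 0.0064). Rat group and slide cannot be told apart here, nor can supplier, which the labels do not give per rat. Within slides the limma adjusted p was 0.26. Leaving out rat 2, 4, 5, 7 or 8 also took it past 1%, to at most 0.020.

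Rps20 was highest in female 3 (11.26) and male 5 (11.25) and lowest in female 4 (10.83) and female 8 (10.84), with 10.94, 11.05 and 10.95 in males 1, 2 and 6 and female 7 between the last 2 (F = 13.4, limma adjusted p = 0.0096). Its second probe, at 8.62 and not among the 150, also had its highest value in female 3 (8.88) and its lowest in female 4 (8.42). Leaving out rat 2, 3, 4, 5, 7 or 8 raised the adjusted p of the bright probe above 1%, to at most 0.034. Comparing only rats that shared a slide, the F was 13.5 and the adjusted p was 0.12.

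**Figure D3:**
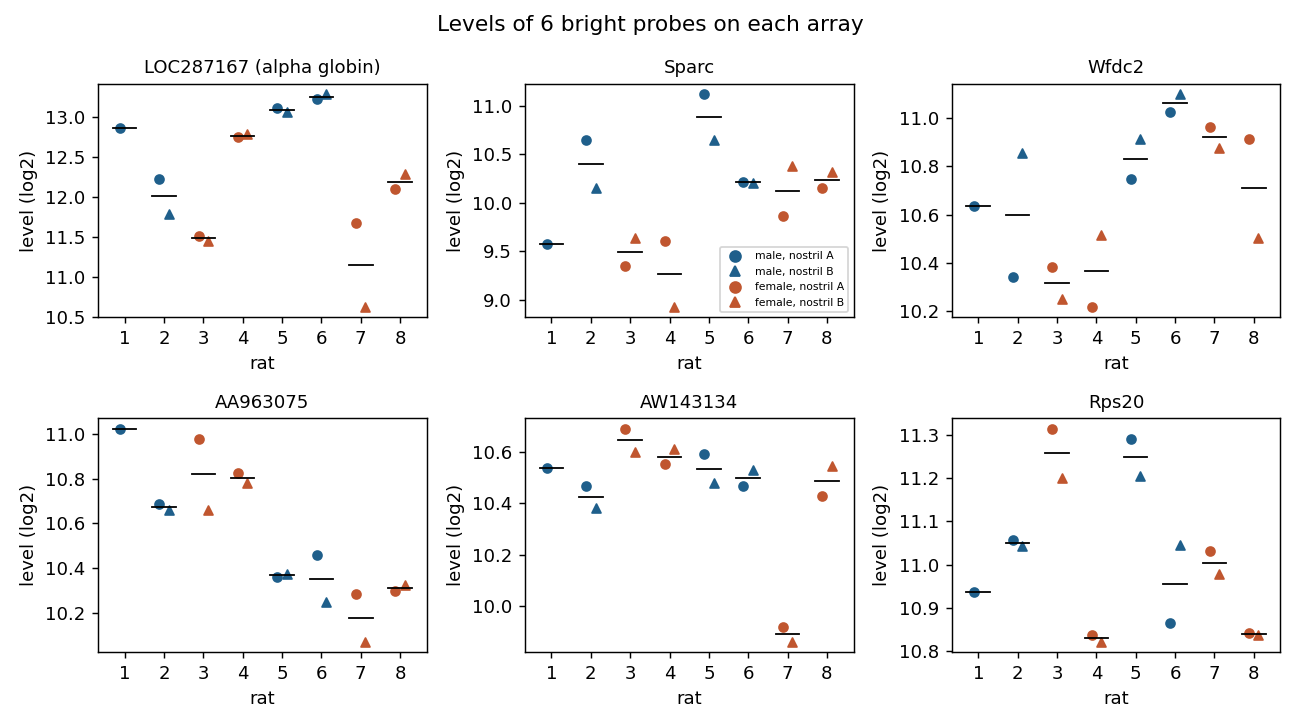
Level (log2 of signal over the array median) of 6 bright probes on each array, by rat, with males in blue and females in orange, nostril A as circles, nostril B as triangles and the mean of a rat as a line. AW143134 is low in female 7 (9.89), AA963075 is lower in rats 5 to 8 than in rats 1 to 4, and LOC287167 spans 11.15 to 13.25.

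The probes next in F were LOC287167 (F = 12.4, limma adjusted p = 0.011), an Ftl1 probe (12.2), an M27315 probe (12.1), Plunc (11.4), S74324 (10.6, an estrogen induced sequence by its description), a Ubb probe (9.63), AW920832 (9.34), AW914778 (8.84) and AW918520 (8.72). After quantile normalization the F was 3.51 for the M27315 probe (limma adjusted p = 0.11), 2.14 for Plunc (0.25) and 3.86 for the Ubb probe (0.094). It was 5.54 for S74324 (0.048), and it rose for the others just listed. By role, the 39 probes past 5% held 9 of the 16 unnamed transcripts, 8 of the 48 ribosomal protein probes, 5 of the 9 cytoskeletal probes and 3 each of the 19 metabolic, 9 protein turnover and 5 nuclear protein probes. They also held 2 of the 7 secreted, gland and supporting cell probes, 2 of the 4 mitochondrial probes and 1 each of the 12 other annotated, 5 ribosomal RNA, 4 translation factor and 1 red blood cell probes, and 0 of the 11 probes of neurons and odor signaling. Across the full gene lists, 13.6% (energy metabolism, and secreted mucosal and defense proteins) to 46.7% (red cell, 7 probes) of the probes tested passed 5%, against 16.1% of all probes. For ribosomal proteins it was 18 probes by gene name (15.1%) and 93 by description (25.1%), and for the cytoskeleton 26 (31.3%). Of the neuronal list 24 of 71 probes passed (33.8%), of odor transduction 5 of 29 (17.2%), and of histones and chromatin proteins 30 of 97 (30.9%). Comparing only rats that shared a slide, 0 of the 150 passed 5%, against 0.116% of all probes, and 44 of the 150 had an unadjusted p under 0.05, against 17.1% of all probes.

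The sexes were compared on the means of 4 female and 4 male rats with limma. At 1%, 0.0434% of all probes tested were called and 0 of the 150. The smallest adjusted p among the 150 was 0.12. Unadjusted p-values under 0.05 were found for 8 of the 150 probes, against 17.1% of all probes tested. With scaling to the 75th percentile there were 25 (17.6% of all probes) and after quantile normalization 27 (18.0%), so the lower share of the 150 did not hold under these scalings. The level was higher in females for 48 of the 150, against 52.1% of all probes, and the median difference, female minus male, was -0.05 log2 units, against 0.01 over all probes tested. This count moved with the processing: 34 of the 150 were higher in females with scaling to the 75th percentile, 76 after quantile normalization and 20 with normexp background correction. Over all probes the median difference was -0.018, -0.002 and -0.011 in these settings. With slide as a block the count was 113 and the median difference was 0.07, against 0.05 over all probes. However, slide 1 alone held both sexes and had 1 female array, so this fit gives no firm direction for the sexes. At 5% that fit called 10 of the 150, against 5.63% of all probes, with the same limit.

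The 5 probes with the smallest p also were the 5 whose levels did not overlap between the sexes, where 11.3% of all probes tested did not overlap. The mean level of the 3 sustentacular cell markers also did not overlap, at 9.60 to 9.73 in males and 9.80 to 9.99 in females, whereas every other marker list overlapped. The part of cell makeup in these differences was not tested. Rps15a, a ribosomal protein, stood at 10.27, 10.40, 10.34 and 10.35 in males and at 10.65, 10.52, 10.58 and 10.48 in females, all females being higher (difference 0.22, SE 0.05, limma adjusted p = 0.12). Atp1b1, a subunit of the sodium pump, stood at 10.91, 10.87, 10.89 and 10.92 in males and at 11.10, 11.11 and 11.10 in females 3, 4 and 7, and a little lower, though above all males, in female 8 (difference 0.18, adjusted p = 0.12). AW919175, an unnamed transcript, stood at 10.22 to 10.41 in males and 10.44 to 10.60 in females (difference 0.22, adjusted p = 0.14).

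Both Ftl1 probes pointed the other way. The first stood at 10.50, 10.48, 10.66 and 10.82 in males and at 10.39, 10.45, 10.41 and 10.34 in females (difference -0.21, SE 0.08, limma adjusted p = 0.20). The second, at 10.47 to 10.94 in males and 10.29 to 10.46 in females, had a difference of -0.30 (adjusted p = 0.20). The 3 other Ftl1 probes on the array, which did not reach the brightest 150, had differences of -0.21, -0.22 and -0.23. With slide as a block the differences of the bright Ftl1 probes were -0.02 and -0.11, and that of AW919175 was 0.11. LOC287167 had the largest difference of the 150 (-0.90, SE 0.36, limma adjusted p = 0.25), with an overlap of the sexes and the red cell markers as given above.

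**Figure D4:**
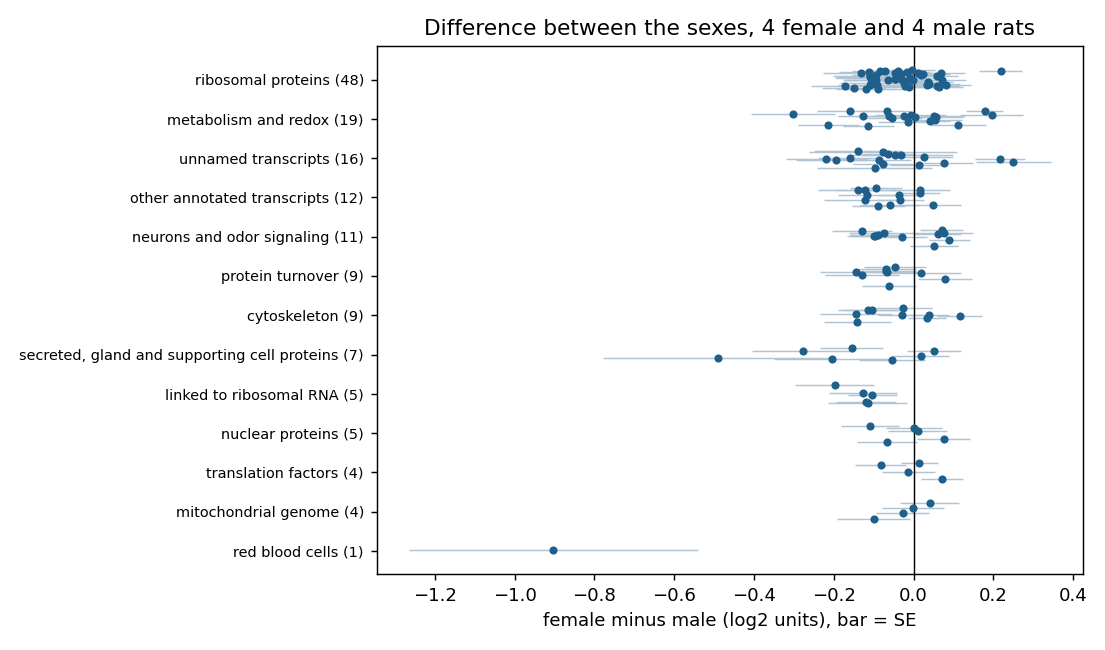
Female minus male difference of each of the 150 probes (log2 units, bars are the SE from limma, 4 rats a sex) by role. Most points lie between -0.2 and 0.2, and LOC287167, the red blood cell probe, lies at -0.90.

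The 2 sides of the nose were compared in the 7 rats measured on both, with rat as a block. By limma's adjusted p, 0 of the 150 and 0 of 27574 probes passed 5%, and the smallest adjusted p among the 150 was 0.78. An unadjusted p under 0.05 was found for 7 of the 150, against 5.89% of all probes tested (17 after quantile normalization, against 6.65%), and nostril B was higher for 48 of the 150, against 55.8% of all. This count was 42 with scaling to the 75th percentile, 77 after quantile normalization and 1 with normexp background correction. Over all probes the median difference, B minus A, was 0.004, 0.004 and -0.052 in these settings. The smallest p belonged to Gpx6 (B minus A -0.15, SE 0.03), which was higher in nostril A in 6 of 7 rats, and to Scgb1c1_predicted (-0.16, SE 0.04), higher in nostril A in 7 of 7 rats. RGD1559861_predicted (-0.09), Cst3 (-0.14, a protease inhibitor) and a Ubb probe (-0.07) followed.

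The 150 probes lay on many chromosomes. Chromosome 1 held 24 of them, chromosome 3 held 14 and chromosomes 5 and 10 held 13 each. By the array annotation 1 was on the X chromosome (0.667% of the 150, against 3.73% of all probes and 3.11% of those tested). A further 12 had no position and 6 lay on unplaced sequence. A RefSeq accession in the current reference table matched 83 of the 150 (55.3%), against 26.5% of all probes. The reference gave 11 of these another symbol, such as Hba-a3 for LOC287167, Bpifa1 for Plunc and Cdhr1 for Pcdh21.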

How the data were processed

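RNA of each olfactory epithelium had been amplified with Cy3 and read on a one-color Agilent rat array. The deposited files hold the processed intensity of each spot, from which the authors' software (Feature Extraction) had removed local background and spatial trends, with no scaling between arrays. A deposited table of ratio values (each signal over the medians of its array and probe) served as an alternative. Positions are those of the array annotation (build rn3), and current symbols come from the RefSeq table of GRCr8.

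For the tests, spots marked non-uniform or as population outliers were left out (61 to 175 per array), signals were divided by the array median (57.4 to 83.0 intensity units over probes), a floor was set at 0.1 of it, and values were put on the log2 scale. Tests used probes well above background on 7 or more arrays (27625, or 27574 with a value on every array) with limma 3.58.1 in R 4.3.3 (lmFit, eBayes with trend, two-sided, Benjamini-Hochberg over all probes, 1% and 5%). The scripts were tested on simulated data. Per array, 26233 to 28741 probes were detected. The number of animals limits the precision, and each nostril pair comes from 1 animal.

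Members, roles and gene lists were chosen with earlier results of these data known. The probes named are the 30 highest with a gene symbol, those called or the 5 with the smallest p in the sex and nostril tests, the 12 highest F among rats, the 5 lowest and highest SD, those at the limit, and up to 4 per gene list. Those named outside it, such as other members tied to ribosomal RNA, mitochondria or shared bases, were chosen after their values were seen. Some results are not reported here. Alternatives were other scalings, background correction, filters, floor, slide as a block and leaving out each rat.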

Additional observations from a re-analysis of the deposited data

Results flagged for a closer look

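Among the 66 named probes, the 4 rats of each sex were checked for 1 rat far from the others (132 checks, of which chance flags about 1 in 20), and 1 was found. Atp1b1 was low in female 8, with a gap of 0.10 that made up 0.924 of the range of the females.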

How the results depend on the processing

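Of the 150 probes, 135 stayed among the 150 highest under every setting tried, and 139 did with normexp background correction, the setting that moved most. Among rats of 1 sex at 1%, the 3 calls (2.79% of all probes were called) became 7 with scaling to the 75th percentile (4.73% of all), 11 with quantile normalization (5.26%), 1 each without a detection filter (2.4%), with the ratio table (1.44%) and without a variance trend (1.47%), and 0 each with normexp (0.283%) and with slide as a block (0.00363%). At 5%, the 39 calls (16.1% of all) became 7 without the filter (8.58%), 12 with the ratio table (11.5%), 13 without the trend (11.6%), and 0 each with normexp (0.671%) and with slide as a block (0.116%). Leaving out single rats gave 1 to 4 calls at 1% (1 without rat 2, 4, 5, 7 or 8), with 0.674% to 3.26% of all probes called. At 5% it gave 12 to 52, with 7.11% to 20.7% of all: 22 without rat 2 (9.39%), 14 without rat 4 (11.8%), 23 without rat 5 (11.3%), 12 without rat 7 (7.11%) and 20 without rat 8 (9.3%). AW143134 was lost without female 7, with normexp and with slide as a block (adjusted p = 0.053, with F still 23.0), and AA963075 and Rps20 under each setting that gave 1 or 0 calls. Between the sexes at 1%, 0 of the 150 were called in all settings except the 15 arrays taken as independent, which gave 3 (Rps15a, Atp1b1 and AW919175, against 3.74% of all probes) but counts nostrils of 1 rat as separate animals. At 5% that setting gave 6 and slide as a block 10, against 12.6% and 5.63% of all probes, and the other settings 0. The 8 probes with an unadjusted p under 0.05 between the sexes became 3 with normexp (6.63% of all), 5 without the filter (12.9%), 29 with slide as a block (20.3%) and 36 with arrays as independent (29.4%), and 13 without rat 1 (18.1%), 5 without rat 5 (12.4%) and 20 without rat 7 (16.9%). With the methods' t-test, 0 of the 150 passed 1% after adjustment and 5 had an unadjusted p under 0.05, against 16.2% of all probes. The nostrils gave 0 calls in every setting, also without the rat as a block (3 with an unadjusted p under 0.05, against 1.47% of all probes). The 7 with an unadjusted p under 0.05 became 2 with normexp (1.87%), 3 without the filter (4.44%), 4 each with the ratio table (5.77%) and without the trend (5.84%), 4 without rat 5 (5.24%), 11 without rat 6 (4.29%) and 3 without rat 7 (5.41%). The median SD over rats was 0.071 within slides, against 0.092 over all probes tested, and 0.10 to 0.11 without single rats. The cause of these changes was not tested.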
